A study of Mus musculus with 8 samples.

Results

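In alveolar organoids grown from mouse alveolar type II (AT2) cells, 5312 regions of the genome gave a p53 ChIP-seq peak in both vehicle libraries (CTRL) and in neither library from organoids treated with bleomycin (BLM), a drug that breaks DNA strands. They are called vehicle-only regions here. The peaks of the 4 lists were joined into 63268 regions wherever they overlapped by at least 1 bp, and the vehicle-only regions were 8.4% of these. The opposite pattern, a call in both BLM lists and no call in CTRL, was held by 1286 regions, or 2.03%. The members were chosen by the peak calls themselves, so their number and strength are given as a description, with no test.

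All organoids were wild-type, derived from male mice of 8 to 12 weeks of age by sorting epithelial cells that stained for EPCAM and MHCII and not for CD31 or CD45, and were grown in Matrigel. CTRL organoids received DMSO and BLM organoids 100 μM bleomycin, both for 24 h. Each group had 2 libraries, made with a rabbit monoclonal antibody against p53 (D2H9O) after fixation with formaldehyde and DSG. The data came from 2 independent mice, but which libraries share a mouse is not given in the sources used here, so the spread between replicates may be partly technical. Peak lists hold no expression values, so the AT2 identity of the cells was not checked. The 4 input libraries were not analysed here.

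p53 is a transcription factor that binds DNA as a tetramer, at response elements made of a pair of 10-base units. In unstressed cells its level is kept low by the ubiquitin ligase MDM2, and DNA damage stabilises the protein, which then activates genes of cell cycle arrest, apoptosis and DNA repair. ChIP-seq recovers DNA that was crosslinked to the protein directly or through other proteins. A peak caller then reports stretches where reads exceed a background, so a region missing from a list fell below the calling threshold there and can still hold reads.

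RefSeq promoter windows of genes with a vehicle-only region over the transcription start site (TSS) are shown first, since these are the places where a gene can be named without a distance. The windows were matched by gene symbol and are not the sequences of the regions themselves, which were not read here. Start sites were inferred from the deposited gene table, as described with the distances, and 13 genes had a vehicle-only region over the inferred start. For 10 of the 13 genes RefSeq gave a promoter window of 300 bases, from 250 before to 50 after the gene start, on build GRCm38.p6. Whether the RefSeq start is the same base as the start inferred on GRCm39 was not tested. The windows of *Ass1* (argininosuccinate synthase, an enzyme of arginine synthesis, chr2:31470020-31470319, plus strand), *Commd8* (chr5:72168140-72168439, minus strand) and *Commd4* (chr9:57158250-57158549, minus strand) follow, read 5′ to 3′ along the gene. COMMD4 and COMMD8 are members of the COMMD family, which acts in the return of membrane proteins from endosomes to the cell surface. Capitals mark matches on either strand to the p53 decamer (the 10-base unit of a response element), to CCAAT (the NF-Y motif), to GGGCGG (the SP1 motif) or to TGACTCA (the AP-1 motif), and no matches overlap in these windows.
Ass1: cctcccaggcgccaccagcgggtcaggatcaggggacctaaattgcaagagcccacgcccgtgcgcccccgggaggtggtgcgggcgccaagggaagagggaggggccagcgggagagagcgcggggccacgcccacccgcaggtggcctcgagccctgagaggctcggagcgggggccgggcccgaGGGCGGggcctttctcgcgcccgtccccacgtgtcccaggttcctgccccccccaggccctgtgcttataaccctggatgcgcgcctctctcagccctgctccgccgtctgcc
Commd8: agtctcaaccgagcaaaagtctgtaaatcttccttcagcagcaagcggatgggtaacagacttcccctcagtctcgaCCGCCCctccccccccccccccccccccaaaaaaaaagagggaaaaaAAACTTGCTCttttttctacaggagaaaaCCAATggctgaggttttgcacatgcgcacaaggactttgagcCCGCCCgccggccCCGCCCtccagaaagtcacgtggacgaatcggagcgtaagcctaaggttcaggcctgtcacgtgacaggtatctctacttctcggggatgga
Commd4: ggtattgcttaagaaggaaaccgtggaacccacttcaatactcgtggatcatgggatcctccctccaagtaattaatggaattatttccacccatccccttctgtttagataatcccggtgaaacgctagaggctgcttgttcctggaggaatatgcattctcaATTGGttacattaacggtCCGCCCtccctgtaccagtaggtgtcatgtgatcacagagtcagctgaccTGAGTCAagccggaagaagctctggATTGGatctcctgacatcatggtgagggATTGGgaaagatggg

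*Ass1* was chosen because its start site rests on agreeing distances, *Commd8* because its window alone held a match to the p53 decamer, and *Commd4* because its window alone held TGACTCA. The match in *Commd8* began 126 bases before the gene start. At least 1 p53 decamer was present in 8.36% of the 32851 RefSeq promoter windows of the same length. GGGCGG was found in 8 of the 12 windows that the 10 genes have, beside 35.7% of all windows. CCAAT was found in 7 of the 12, beside 37.4% of all, and TGACTCA in 1, beside 5.20%. Counted by gene, GGGCGG was found for 7 of the 10 and CCAAT for 6. The 2 windows of *Lca5* overlap, so its CCAAT matches are counted in both. The 2 windows of *Impdh1* do not overlap, and at most 1 of them can match its inferred start. Both held GGGCGG and both are counted among the 12. The median GC content of the 12 windows was 60.2%, and that of all windows 52.7%. With 12 windows these shares are a description, and a match does not show that a factor binds there. On GRCm39 the vehicle-only region covered 262 of the 300 bases around the inferred start of *Ass1*, 285 at *Commd8* and 218 at *Commd4*.

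The 4 libraries gave lists of similar but unequal length. CTRL replicate 1 had 50430 peaks and CTRL replicate 2 had 48743, while BLM replicate 1 had 39577 and BLM replicate 2 had 41451. Each list was called separately, and the lowest −log10 q in a list lay between 2.00 and 2.03. Read depth is unknown, and its part in the unequal lengths was not tested. When every list was shortened to its 39577 peaks of highest fold enrichment, 2563 regions were vehicle-only and 2074 had the opposite pattern. The excess of vehicle-only over BLM-only regions was therefore much smaller with lists of equal length. With the −log10 q raised to at least 5 in all lists, the counts were 5069 and 1128, so this change of threshold kept the excess.

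Vehicle-only regions were narrow. Their width ranged from 140 to 1307 bp with a median of 304 bp (interquartile range 243 to 391 bp), and 8.92% were wider than 500 bp. Regions called in both CTRL and 1 BLM library had a median width of 371 bp, and regions called in all 4 libraries 591 bp, with 64.2% over 500 bp. BLM-only regions, called in both BLM lists alone, were narrower still, with a median of 243 bp, and those of a single CTRL library had medians of 182 and 177 bp. A region joined from more lists spans more peaks, so width partly follows from the number of calls. The members' own peaks, summed per region, had median widths of 237 bp in CTRL replicate 1 and 229 bp in CTRL replicate 2. For the regions of all 4 libraries these were 488 and 464 bp. The sums leave out BLM peaks, but a BLM peak can join separate CTRL peaks into a region. A CTRL list held 2 or more peaks in 11.1% of the regions of all 4 libraries and in 1.49% of the members.

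Vehicle-only regions also ranked low in the CTRL lists. Peaks were ranked by fold enrichment within each list, the highest being percentile 100. The median percentile of vehicle-only regions was 30.2 in CTRL replicate 1 and 28.8 in CTRL replicate 2. The regions called in both CTRL and 1 BLM library had medians of 41.2 and 39.6, and those of all 4 libraries 72.2 and 71.1. In fold enrichment, the vehicle-only medians were 5.76 and 5.79, and the values reached from 1.63 to 14.2 in replicate 1 and from 1.91 to 16.6 in replicate 2. The median −log10 q was 7.19 in replicate 1 and 6.84 in replicate 2.

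In the CTRL lists, most vehicle-only regions were not at the edge of the calling threshold. How far they fell below the threshold in BLM is not in the lists. In both CTRL lists together, 3108 (58.5%) had a −log10 q of at least 5 and 459 (8.64%) of at least 10, while 350 (6.59%) were under 3 in at least 1 list. The members nearest the threshold lay on chromosome 10 at 98943853 to 98944176 (−log10 q 2.00 and 9.32), on chromosome X at 36011504 to 36011790 (2.01 and 2.98) and on chromosome 17 at 7061665 to 7062150 (5.82 and 2.02), all coordinates of regions being on GRCm39. On the BLM side of the rule, the regions just outside were those of both CTRL libraries that 1 BLM library called by a small margin. The first lay on chromosome 11 at 45948870 to 45949181, with a −log10 q of 2.01 in BLM replicate 2. The others lay on chromosome 15 at 102084427 to 102084743 (2.03 in BLM replicate 1) and at 83326427 to 83327149 (2.06 in BLM replicate 1), and both were well above the threshold in CTRL, at 13.3 and 15.2 for the former and 26.3 and 18.4 for the latter. Among the 6815 regions of both CTRL and 1 BLM library, 523 (7.67%) had a BLM −log10 q under 3.

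The share of CTRL regions without a BLM call fell steadily with their rank. Of the 38443 regions called in both CTRL libraries, 13.8% were vehicle-only. When these were placed by the lower of their percentiles in both CTRL lists, the vehicle-only share was 36.3% of 4395 regions from percentile 0 to 10, 25.9% of 3740 from percentile 20 to 30, 11.2% of 3982 from 40 to 50 and 2.53% of 4145 from 60 to 70. It was 0.0811% of 3700 from 80 to 90 and 0 of 2995 above 90. The latter allows a share of up to 0.10% by counting error alone, although the regions share their libraries. From percentile 0 to 10, 32.9% of the regions were called in all 4 libraries, about as many as were vehicle-only.

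**Figure D1:**
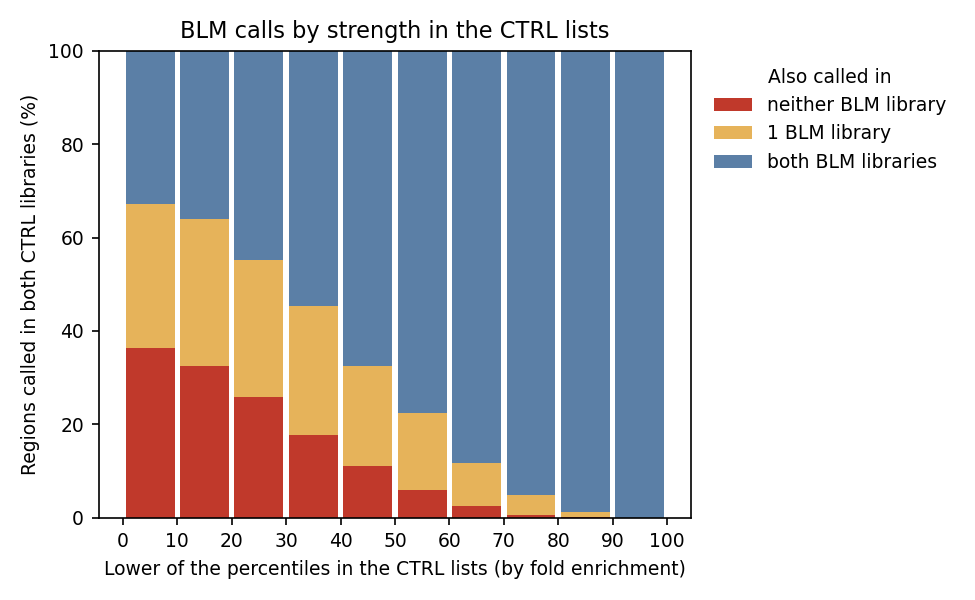
Bars show regions called in both CTRL libraries, grouped along the x axis by the lower of their percentiles by fold enrichment in the CTRL lists, and split on the y axis (percent) by whether neither, 1 or both BLM libraries also called them. The share called in neither falls from 36.3% in the lowest bar to 0% in the highest.

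Within a band of 10 percentile points, vehicle-only regions were narrower than regions of all 4 libraries. From percentile 0 to 10 the median widths were 291.5 and 418 bp, and from 60 to 70 they were 413 and 596 bp. The joining of BLM peaks widens the regions of all 4 libraries. CTRL peak widths were also summed per region without the BLM peaks. From percentile 0 to 10 their medians were 217 bp in replicate 1 and 211 bp in replicate 2 for vehicle-only regions. For regions of all 4 libraries, where BLM peaks can have joined separate CTRL peaks, they were 295.5 and 269.5 bp. From percentile 60 to 70 the summed widths were 366 and 325 bp for vehicle-only regions against 493 and 474 bp.

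The strength of vehicle-only regions was only weakly related between the CTRL libraries. The percentiles had a Pearson correlation of 0.215 and a Spearman correlation of 0.186 over the 5312 regions, against 0.579 and 0.645 over the 26316 regions of all 4 libraries. Regions of both CTRL and 1 BLM library were also low, at 0.306 and 0.295. The regions share their libraries, and the choice of members removed nearly all high values, so these are descriptions of the lists. Replicate 1 gave the higher percentile for 2714 regions and replicate 2 for 2598, an even division. The percentiles differed by more than 25 points for 1651 regions (31.1%). Summits in both CTRL libraries lay a median of 47 bp apart, and within 50 bp for 52.4% of regions, beside medians of 43 bp for regions with 1 BLM call and 38 bp for those of all 4 libraries.

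**Figure D2:**
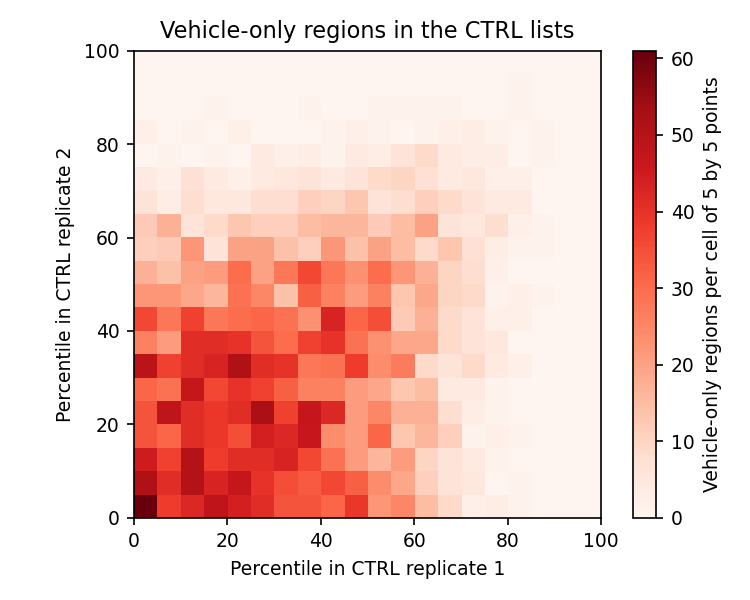
Each cell of 5 by 5 percentile points gives by its colour the number of vehicle-only regions with that percentile in CTRL replicate 1 (x axis) and CTRL replicate 2 (y axis). The 5312 regions fill the lower left of the field broadly, and 8 lie at or above percentile 75 in both lists.

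Few vehicle-only regions were strong in both lists. Both percentiles were at least 50 for 358 regions (6.74%) and at least 75 for 8. No region was above percentile 90 in both lists, and 1 was above it in 1 list. This was the member with the highest lower percentile, at chr11:68004247-68004810, 564 bp wide. Its fold enrichment was 12.6 in CTRL replicate 1 and 16.6 in CTRL replicate 2, its percentiles were 82.3 and 92.4, and its −log10 q values were 24.9 and 35.9. The nearest BLM peak lay 13745 bp away.

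The next by rank was at chr2:163479581-163480143, with folds of 14.2 and 12.3 (percentiles 87.1 and 81.6) and the nearest BLM peak 6361 bp away. A region at chr4:135587338-135587815 was at percentiles 80.2 and 89.4. It lies in the window with the third highest number of members. The region at chr13:34220685-34221140 had folds of 11.9 and 12.3, and a region of all 4 libraries lay 106 bp from it. The region at chr5:65767133-65767468 had folds of 13.5 and 11.8 and lay 71869 bp from any BLM peak. These regions thus stood both beside and far from BLM peaks.

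The other 5 of the 10 highest lay on chromosomes 5, 7, 10, 11 and 12, with folds from 10.6 to 12.7 in both libraries. The closest to an inferred start site was at chr7:67342787-67343241, 47.8 kb upstream of *Lrrc28*. For the other 9 the nearest inferred start was at least 806 kb away, and only a small set of genes has one.

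The 5 widest members reached from 1018 to 1307 bp. The widest, at chr17:10416179-10417485, had a fold of 4.91 in replicate 1 and 7.71 in replicate 2, where it held 2 peaks. The second, at chr9:66513202-66514442, was 1241 bp wide with folds of 13.5 and 9.01. At chr17:27841710-27842821 a region of 1112 bp had folds of 8.25 and 7.05, 109 kb upstream of *Grm4*, a glutamate receptor gene. The others, of 1104 bp on chromosome 11 and 1018 bp on chromosome 14, had folds from 5.06 to 9.08.

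Vehicle-only regions were spread over all autosomes and X. Chromosomes 1 to 19 and X each held between 111 and 424 members. As a share of the regions called in both CTRL libraries, which takes account of how many regions a chromosome has, they made up from 9.81% on chromosome 19 (95% Wilson interval 8.21 to 11.7%) to 16.2% on chromosome 10 (14.6 to 17.8%), with a median of 14.0%. Chromosomes 15 (11.2%) and 7 (12.1%) were next above 19, and X stood at 14.8%. The intervals cover counting error only, regions of a chromosome share libraries, and no test between chromosomes was made.

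**Figure D3:**
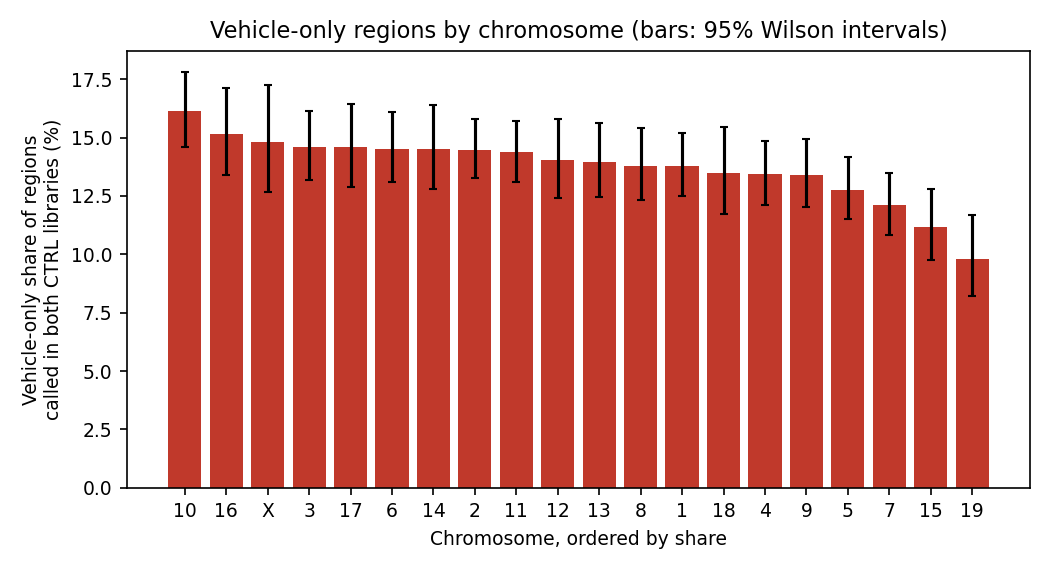
Bars give, for each chromosome on the x axis, vehicle-only regions as a percentage of regions called in both CTRL libraries, with 95% Wilson intervals that cover counting error only. Most chromosomes lie near 14.0%, with 19 the lowest at 9.81% and 10 the highest at 16.2%.

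The mitochondrial genome stood apart. All 9 regions that both CTRL libraries called there were vehicle-only. The lists held 12 mitochondrial peaks in CTRL replicate 1 and 10 in CTRL replicate 2, and 0 in each BLM list. Their folds were low, from 1.63 to 2.80 in replicate 1 and from 1.91 to 3.13 in replicate 2 among the 9 regions, which placed the mitochondrial peaks at or below percentile 0.0575 and 0.295. Their −log10 q values nonetheless reached 18.3 and 22.0. Mitochondrial DNA is present in many copies per cell. The 9 regions covered 4865 bp, had a median width of 515 bp, and lay between positions 74 and 16174. The strongest was at chrM:15339-15655, with folds of 2.80 and 3.13. The amount of mitochondrial DNA in each library is not in the lists, and its part in these calls was not tested. Without them 5303 vehicle-only regions remain.

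Most members stood alone. Chained by gaps of at most 10 kb, 4239 had no other member near, 422 chains held 2 and 70 held 3 or more. The longest outside the mitochondrial genome was at chr7:67715554-67734098, where 5 of the 6 regions of both CTRL libraries within 18.5 kb were vehicle-only, 113 kb from the inferred start of *Igf1r*, the receptor of insulin-like growth factor 1. Another was at chr13:21894577-21906325, where all 4 regions of both CTRL libraries within 11.7 kb were vehicle-only. The lower percentiles of the members ran from 3.34 to 51.8 in the first of these chains and from 6.09 to 49.8 in the second, so neither was made of uniformly weak peaks.

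In windows of 1 Mb, 1539 of the 2067 windows with a region of both CTRL libraries held a member. The most were 18 on chromosome 2 from 32 to 33 Mb, where they made up 20.9% of the 86 regions of both CTRL libraries. The next were 17 of 89 on chromosome 3 (121 to 122 Mb) and 15 of 60 on chromosome 4 (135 to 136 Mb). Windows on chromosome 13 (23 to 24 Mb, 14 of 53) and chromosome 6 (31 to 32 Mb, 14 of 51) followed. The last holds the inferred starts of *Mkln1* and *Podxl*, the latter encoding podocalyxin, a cell surface sialoprotein. These shares, from 19.1 to 27.5%, lie above the 13.8% over all regions, but the windows were picked for their counts.

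Many members lay close to regions called in all 4 libraries. By the rule the regions cannot overlap. The median gap was 8011 bp, and 10.1% of members lay within 0.5 kb, 16.9% within 1 kb, 40.8% within 5 kb and 55.1% within 10 kb (95% Wilson interval 53.8 to 56.4%). Regions of both CTRL and 1 BLM library gave nearly the same values, with a median gap of 8128 bp and 54.4% within 10 kb (53.3 to 55.6%). Regions of a single CTRL library were at 55.6 and 56.5% within 10 kb, and more of them (15.3 and 15.4%) lay within 0.5 kb. BLM-only regions were farther away, with a median gap of 16851 bp and 39.5% within 10 kb (36.9 to 42.2%). At 10 kb the share of vehicle-only regions thus lay among those of the other CTRL patterns. No test over libraries was possible for this difference, since each class draws on all 4 lists.

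**Figure D4:**
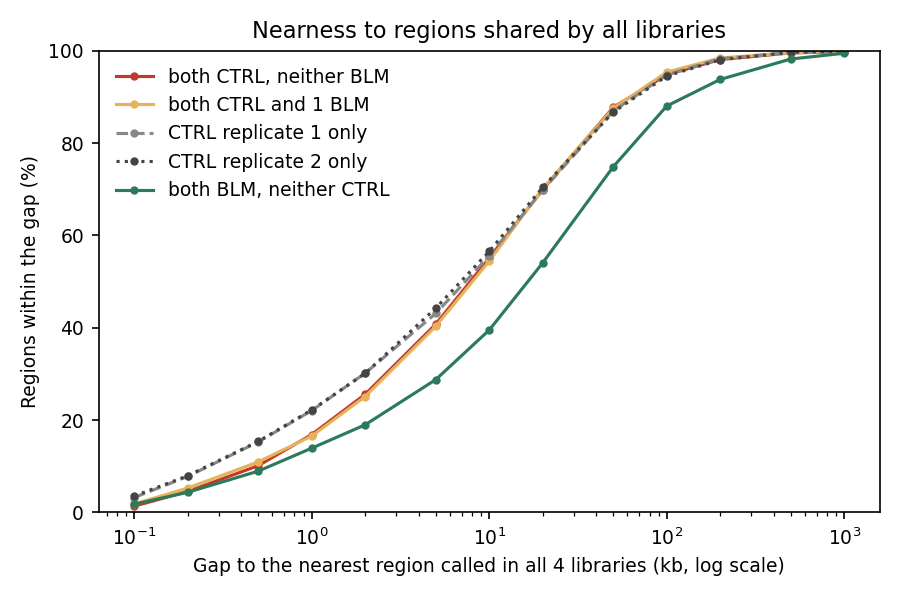
Lines give the percentage of regions (y axis) within a given gap (x axis, kb, log scale) of the nearest region called in all 4 libraries, for vehicle-only regions and for 4 other call patterns. The line of vehicle-only regions lies on that of regions with 1 BLM call, and both lie above the line of BLM-only regions, at 10 kb with 55.1, 54.4 and 39.5%.

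Members close to a shared region were slightly wider and lower in rank than those far from one, with no test. The 896 within 1 kb had a median width of 315 bp and median percentiles of 27.0 and 26.3. The 641 beyond 50 kb had a median width of 291 bp and percentiles of 32.1 and 31.8. The 879 shared regions next to a member had a median width of 649 bp and a median percentile of 76.2 in CTRL replicate 1, beside 591 bp and 72.2 over all shared regions. To BLM peaks of any kind, the gap was at most 1 kb for 1244 members (23.4%) and at most 10 kb for 67.9%, which leaves 4068 members with no BLM peak within 1 kb.

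No member overlapped any region that the authors list as enriched in BLM, and 60 (1.13%) lay within 10 kb of one. For regions of both CTRL and 1 BLM library this share was 1.75%, and for those of all 4 libraries 3.29%. The first value follows in part from the rule, since an enriched region usually holds a BLM peak.

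Distances to genes were measured to start sites implied by the gene table, which gives the distance of each BLM-enriched region to its genes. Such a start could be placed for 1154 of the 1425 genes in the table, each of which the table gives at least 1 BLM-enriched region. That region can lie far from the start, as at *Rab38* (807 kb). For the 969 starts placed by gene order it lay more than 5 kb away. Of the vehicle-only regions, 13 (0.245%) lay over an implied TSS and 160 (3.01%) within 10 kb of one (95% Wilson interval 2.59 to 3.51%). Of the regions of both CTRL and 1 BLM library, 0.631% lay over a TSS and 3.13% within 10 kb. Of the regions of all 4 libraries, 2.14% lay over a TSS and 4.69% within 10 kb (4.44 to 4.96%). The shared regions were also wider, and wider regions cover more bases. Of the shared regions, 286 (1.09%) overlapped a BLM-enriched region, beside 0 vehicle-only regions and 1 region with 1 BLM call. The start sites were placed from the enriched regions, so the shares of these classes are not independent of the gene set.

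Regions were also compared within bands of the lower percentile. Under 25, 0.204% of 3431 vehicle-only regions, 0.566% of 3182 regions with 1 BLM call and 1.07% of 3660 regions of all 4 libraries lay over a TSS. From 25 to 50, the shares were 0.394% of 1523, 0.540% of 2409 and 1.61% of 5657. At 50 and above they were 0 of 358, which by counting error alone allows a share of up to 0.838%, 0.980% of 1224 and 2.55% of 16998. Within 10 kb of a TSS, vehicle-only regions and those with 1 BLM call were close under 25 (3.24 and 3.27%) and from 25 to 50 (2.89 and 2.86%). At 50 and above they stood at 1.40% (5 of 358) and 3.27% (40 of 1224), the former resting on few regions. Regions of all 4 libraries were at 3.96, 4.22 and 5.01% in these bands. Widths still differed within these bands, with medians of 290 and 427 bp in the lowest, and the part of width was not tested. BLM-only regions, which supply many of the enriched regions that placed the start sites, had 7.15% within 10 kb, so their value is not independent of the gene set. The same limit holds within the bands for regions of all 4 libraries.

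Of the 160 members within 10 kb, 57 lay upstream of the nearest gene, 90 downstream of its start and 13 over it. They belonged to 140 genes, of which 98 also had a region of all 4 libraries over the start itself, beside 565 of all 1154 genes. A vehicle-only region near a gene was therefore often beside a start site that p53 ChIP called in every library. Among the 30 genes nearest to a member, it held for 12 of the 17 whose member did not cover the start.

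The 13 genes with a vehicle-only region over the start have varied roles. Only *Ass1* among them has a start from agreeing regions, and the other starts rest on the order of neighbouring genes. Of the 30 nearest genes, 2 have a start from agreeing regions. *Ass1* had folds of 5.55 in CTRL replicate 1 and 6.93 in CTRL replicate 2 (percentiles 25.9 and 46.0). *Commd8* had folds of 4.89 and 5.93, and *Commd4* 6.29 and 7.17, higher than *Commd8* in both libraries. *Hectd2*, which encodes a HECT-type ubiquitin ligase, had the strongest of the 13 peaks in replicate 1, with a fold of 10.8 (percentile 75.1), but 6.27 in replicate 2 (percentile 37.0). The BLM peak nearest to its region lay 102914 bp away.

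*Pbx4*, a homeobox gene, gave nearly equal values in both libraries, with folds of 6.55 and 6.59 (percentiles 41.2 and 41.2). *Ptp4a3*, a tyrosine phosphatase gene, had folds of 6.44 and 7.40. *Impdh1*, which encodes an enzyme of guanine nucleotide synthesis, was the weakest in replicate 2, with a fold of 3.58 and a −log10 q of 2.05, just past the threshold, and 4.91 in replicate 1. The weakest in replicate 1 was *Bnip1*, which encodes a SNARE protein of the endoplasmic reticulum, with 3.79 beside 5.61 in replicate 2. The region of *Bnip1* lay 179 bp from a BLM peak.

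*Lca5*, which encodes the ciliary protein lebercilin, had folds of 4.51 and 6.58. *Qrsl1*, a gene of mitochondrial glutaminyl-tRNA synthesis, had 5.73 and 6.18. *Tspan3*, a tetraspanin gene, had 5.53 and 5.24. *Lhfpl2* (5.32 and 6.80) and *Zbtb7c*, a zinc finger gene (7.27 and 5.19), complete the group. The fold was higher in replicate 1 for *Hectd2*, *Impdh1*, *Tspan3* and *Zbtb7c*, and in replicate 2 for the other 9.

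Of the other 17 among the 30 nearest genes, with gaps from 321 to 863 bp, *Tsc22d2* had the strongest region. It lay 737 bp upstream of the start with folds of 12.3 and 10.1 (percentiles 81.1 and 71.4), and a region of all 4 libraries covered the start. *Tgfa*, which encodes transforming growth factor alpha, a ligand of the EGF receptor, had a vehicle-only region 421 bp downstream of its start, with folds of 6.24 and 5.12, while the start lay in a region of all 4 libraries and a BLM-enriched region was 14.4 kb upstream. *Birc3*, an inhibitor of apoptosis gene, had folds of 7.99 and 5.79 at 795 bp downstream. Its region was 101 bp from a BLM peak. *Zmiz1*, a transcriptional coregulator gene, had a region 814 bp upstream with a fold of 3.48 in replicate 1 and 6.27 in replicate 2, an example of wide disagreement between replicates (percentiles 1.51 and 37.0). It had 3 members within 10 kb in all, as had *Map4k3*, a kinase gene, and 18 genes had 2 or more.

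The remaining genes of the 30 had folds from 4.10 to 7.29. *Txndc5*, which encodes a protein disulfide isomerase, had folds of 4.74 and 6.49, and *Baz2a*, a gene of nucleolar chromatin remodelling, 4.58 and 7.29. The percentiles of *Baz2a* (11.0 and 49.8) were the farthest apart among the 30. *S100g*, a calcium-binding protein gene, had 5.99 and 5.71. The regions of *Tmem30b*, *Mtmr11*, *Ccdc90b*, *Pde7b*, *Vmac*, *Babam2*, *Efhd2*, *Dstn*, *Isca2* and *Ptprk* had folds from 4.10 to 6.96. Those at *Babam2*, which encodes a subunit of the BRCA1-A complex of DNA repair, were the most alike, at 5.95 and 5.99.

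**Figure D5:**
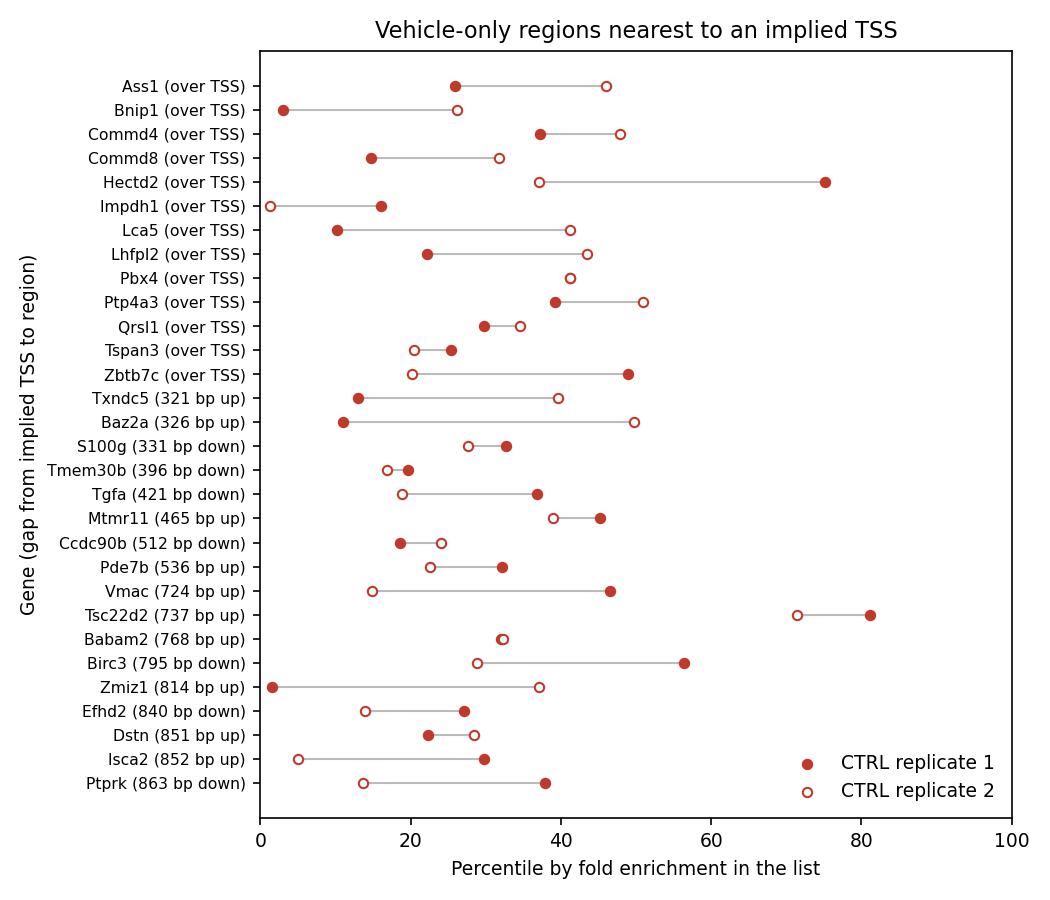
For each of the 30 genes with a vehicle-only region nearest to the implied TSS, listed on the y axis with the gap in bp, points give the percentile of the region in CTRL replicate 1 (filled) and CTRL replicate 2 (open) on the x axis. The replicates agree closely for *Pbx4* and *Babam2* and lie farthest apart for *Baz2a*, followed by *Hectd2* and *Zmiz1*, and *Tsc22d2* is the highest in both.

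Among 105 genes in 7 lists (p53 targets, AT2 cells, AT1 cells, the transitional state between them, TGF-β signalling, cell cycle and other lung cell types), 21 had an implied start and 4 of these had a member within 10 kb. Of 8 p53 targets (*Cdkn1a*, *Mdm2*, *Bbc3*, *Phlda3*, *Gdf15*, *Ephx1*, *Btg2* and *Plk2*) *Plk2* alone had one, beside 140 of all 1154 genes. *Plk2*, a polo-like kinase gene, had its region 2798 bp downstream with folds of 4.54 and 4.76, 76 bp from a BLM peak. Both of the AT2 genes with an implied start had one. They are *Nkx2-1* and *Etv5*, which encode transcription factors that maintain the AT2 state.

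The region of *Nkx2-1* lay 1593 bp upstream, at chr12:56585286-56585938, with a fold of 7.55 in CTRL replicate 1 and 3.12 in CTRL replicate 2, the latter at percentile 0.291. The region of *Etv5* lay 1668 bp downstream, at chr16:22256552-22256801, with folds of 7.23 and 5.81. Both starts were covered by a region of all 4 libraries. The AT1 list (2 genes with a start), the cell cycle list (1) and the list of other lung cell types (1) had no gene with a member. *Itgb6*, which encodes the integrin β6 chain and stands in both the transitional and the TGF-β list, had 2 members, 6764 bp upstream with folds of 7.37 and 6.36 and 8936 bp upstream with 4.74 and 2.99. The farther member was at percentile 0.137 in CTRL replicate 2. The starts of *Itgb6* and *Plk2* were likewise covered by a region of all 4 libraries. With so few listed genes placed, these counts describe single loci and not the lists. The genes named in these last sentences came from the lists and not from the 30 nearest, and their values were known when they were chosen.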

How the data were processed

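p53 ChIP-seq peak lists of 2 CTRL and 2 BLM libraries were analysed. Per the labels, reads were handled with Trim Galore 0.6.7, Bowtie2 2.5.1, MACS3 3.0.0b1, DiffBind 3.8.4 and edgeR 3.40.2 on mm39 and mm10; which step used which build, the control for calling and the treatment of duplicates are not given in the sources used here. The authors deposited, for each peak of each library, a score, a fold enrichment (ratio to background), and −log10 p-values and q-values. The authors also deposited the enriched regions and a gene table with distances computed on mm10 by GREAT. No read counts were used, so depth is unknown and intervals cover counting error only.

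Peaks were joined at 1 bp of overlap (Python 3.11.15, pandas 2.3.3, numpy 2.4.6, scipy 1.17.1). Percentiles are ranks by fold within a deposited list. A TSS was implied where at least 2 regions of a gene agreed within 10 bp (185 of 191 genes), or, for 969 genes, from the order of neighbouring genes in a RefSeq table. Starts were taken from gene order only for genes with 1 region, which the table gives to 2 genes, both more than 5 kb away. A gene whose only enriched region lay within 5 kb therefore has no implied start. The effect of this on the TSS shares was not tested. On 164 genes open to both ways, 162 gave the same position. Joining and gaps were tested on simulated lists. Regions are not replicates, and 2 libraries against 2 allow no two-sided exact permutation p below 0.333, so no test was made. Named regions were the 10 strongest, 5 widest, 5 densest windows, 3 longest chains, and the 30 genes nearest a member. Also named were the 3 members of lowest CTRL −log10 q and the 3 regions with 1 BLM call of lowest BLM −log10 q. Members and lists were chosen with earlier results of these data known.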

Additional observations from a re-analysis of the deposited data

How the results depend on the processing

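Widths and percentiles were taken to have moved when they changed by more than the SD between the CTRL libraries, shares when they left their Wilson interval, and counts when they changed by over 1.5 times. The limits were 5.66 bp, from the members' summed CTRL peak widths, and 0.973 percentile points, each from the medians of 2 libraries. Of 59 values under alternatives, 48 moved and 11 did not. Some alternatives redefine near or relax the rule, so the number of moved values partly follows from the settings. No paired analysis was possible because the results come from no test and the sources used here do not say which libraries share a mouse. With a −log10 q of at least 5 in all lists, the 5069 vehicle-only regions had a median width of 343 bp, median percentiles of 41.2 and 40.9, and 48.8% lay within 10 kb of a shared region. With that limit in the CTRL lists alone, 3108 regions had a median width of 320 bp, percentiles of 39.0 and 38.5, 52.3% within 10 kb of a shared region and 90 within 10 kb of an implied TSS. With 39577 peaks from each list, 2563 regions had a median width of 329 bp, percentiles of 42.9 and 41.5, 50.0% near a shared region and 71 near a TSS, and 2402 of the original regions overlapped one of them. Joining only at an overlap of 50% of the shorter peak gave percentiles of 31.2 and 30.8. Leaving out members with a BLM peak within 1 kb gave a percentile of 30.8 in CTRL replicate 2, 45.3% near a shared region and 103 near a TSS. Shared regions hold BLM peaks, so this setting removes many members beside them, and the lower share follows in part from it. Taking near as within 1 kb gave 16.9% and 32 members, and within 50 kb 87.7% and 492. With starts from agreeing regions alone, 21 members lay within 10 kb.

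Leaving out each library in turn gave 11408 regions without CTRL replicate 1, 12386 without CTRL replicate 2, 8396 without BLM replicate 1 and 9161 without BLM replicate 2, with median widths from 198 to 321 bp, percentiles from 23.5 to 34.4 in CTRL replicate 1 and from 24.1 to 33.1 in CTRL replicate 2, from 56.9 to 59.0% near a region of the remaining libraries, and from 263 to 378 members near a TSS (356 and 378 without CTRL replicates 1 and 2, 263 and 280 without BLM replicates 1 and 2). Each omission relaxes the rule by 1 library. The number of vehicle-only regions moved with each library left out, with lists of equal length and with a stricter limit in the CTRL lists alone, and not with a stricter limit common to all lists. Depth and the input signal at these regions were not measured here.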
